A study of Homo sapiens with 18 samples.

Results

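The 10 keratin genes followed here, KRT7, KRT8, KRT15, KRT17, KRT18, KRT19, KRT23, KRT80, KRT81 and KRT86, are the rows of 2 deposited count tables whose Ensembl gene identifier carries one of these symbols in the GENCODE annotation of GRCh38, and they are 10 of 61541 genes listed. Keratins are the intermediate filament proteins of epithelial cells. Each filament is built from pairs of an acidic type I chain (KRT15, KRT17, KRT18, KRT19 and KRT23 here) and a basic type II chain (KRT7, KRT8, KRT80, KRT81 and KRT86 here), and an unpaired chain is usually degraded. Simple epithelia such as that of the lung make KRT8 with KRT18 and add KRT7 and KRT19, whereas KRT81 and KRT86 belong to the hair keratins and KRT15 and KRT17 are best known from basal cells of layered epithelia and their appendages. Keratins are also routinely read as epithelial markers in studies of the epithelial-to-mesenchymal transition.

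RNA-seq was carried out on A549, a lung adenocarcinoma cell line labelled as wild type, in DMEM with 10% serum. Sodium propionate (SP), the salt of a short-chain fatty acid, was given at 5 mM for 3 h, 24 h, 3 days or 12 days, and untreated cells were taken as control (24 h) and control (3 days). Each of the 6 groups had 3 libraries, 18 in all. SP 3 h and SP 24 h were compared with control (24 h) in one table, and SP 3 days and SP 12 days with control (3 days) in the other. The SP 3 h and SP 12 days groups have no control of their own duration, so for them exposure and time in culture cannot be told apart. The study describes the libraries of the short treatments as biological replicates, and for the other table, where nothing says that libraries came from separate cultures, p-values measure only the spread between libraries, which may be technical.

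The libraries held 14187401 to 43765330 counted reads. CDKN2A, which is deleted in A549, had 0 reads in every library, and the NRF2 targets that mark this line (AKR1B10, AKR1C1, AKR1C2, NQO1, ALDH1A1 and ALDH3A1) summed to 7965 to 18120 CPM (read counts scaled to library size with TMM factors), lower at SP 24 h, SP 3 days and SP 12 days than in the controls. The 5 epithelial markers EPCAM, CDH1, CLDN1, CLDN4 and ESRP1 summed to 134 to 169 CPM in control (24 h), 170 to 209 CPM at SP 3 h, 282 to 319 CPM at SP 24 h, 233 to 246 CPM in control (3 days), 522 to 568 CPM at SP 3 days and 533 to 593 CPM at SP 12 days. Of the 12 markers of leukocytes, endothelium and fibroblasts, CD3E had 0 reads throughout, PTPRC at most 2 and COL1A2 at most 1, while CD14 and COL1A1 were detected. The 5 fibroblast markers summed to 6.51 to 21.8 CPM in control (24 h), 18.9 to 38.7 CPM at SP 3 h, 62.4 to 90.0 CPM at SP 24 h, 14.4 to 14.7 CPM in control (3 days), 61.5 to 71.5 CPM at SP 3 days and 34.9 to 61.0 CPM at SP 12 days. The 4 leukocyte markers, nearly all CD14, summed to 2.94 to 3.91 CPM in control (24 h), 2.32 to 4.37 CPM at SP 3 h, 14.2 to 16.6 CPM at SP 24 h, 16.2 to 17.8 CPM in control (3 days), 34.3 to 37.4 CPM at SP 3 days and 13.0 to 26.1 CPM at SP 12 days, and the 3 endothelial markers stayed between 0.244 and 2.88 CPM. The part of these marker sums in the keratin values was not tested. In bulk RNA a change in the share of cells and a change in RNA per cell cannot be told apart. Replicate 3 of SP 12 days stood apart from the other two of its group: a chi-square of their counts over genes gave 19.3 and 31.2 per degree of freedom against it and 3.01 between the other two. Pairs of the other groups gave 1.99 to 9.27 in the same table and 9.82 to 104 in that of the short treatments. There replicate 3 of control (24 h) gave 104 and 58.8 against the others of its group, which gave 22.9 between them. Replicate 3 of SP 3 h gave 30.4 and 68.1, beside 9.82 between the others. The common coefficient of variation between libraries estimated by edgeR was 0.199 in that table and 0.0996 in the other. For the keratins tested, the log2 fold change at SP 12 days is given with and without replicate 3 of that group.

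The first limit on these measurements is sequence. KRT81 and KRT86 are neighbours on chromosome 12, and their coding sequences matched at 1369 of 1440 aligned bases (95.1%), with a shared run of 605 bases. No other pair of the 10 genes exceeded 79.4% identity. The 60 coding bases at which the pair differed most are given 5′ to 3′ to show where reads can tell the pair apart, with the 14 differing bases in capitals. In both genes they are coding bases 1249 to 1308 and cross an exon junction, from exon 8 to exon 9 of the canonical transcript of KRT81 (chr12:52286465-52286821, minus strand, GRCh38) and from exon 10 to exon 11 of that of KRT86 (chr12:52308234-52308432, plus strand).
KRT81: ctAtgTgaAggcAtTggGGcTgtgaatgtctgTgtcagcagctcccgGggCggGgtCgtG
KRT86: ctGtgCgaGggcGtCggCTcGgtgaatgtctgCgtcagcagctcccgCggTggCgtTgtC
A read from such a stretch can be assigned to one gene. Elsewhere it often cannot: of all 100-base windows of the canonical transcripts, 30.3% of KRT81 and 32.0% of KRT86 occurred unchanged in another gene, 538 of them in each other. How reads that match several genes were handled is not given in the sources used here, so the separate values of KRT81 and KRT86 are uncertain.

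KRT8 (chr12:52897187-52949954, minus strand) and KRT18 (chr12:52948871-52952906, plus strand) lie head to head, and their annotated exons share 525 bases. Of the 100-base windows of KRT18, 18.5% also occur in KRT8. Without a stated strand setting, reads from those bases cannot be assigned to one of them. KRT7 (chr12:52232520-52252186) shares 282 exonic bases with its antisense transcript KRT7-AS. KRT19 (chr17:41523617-41528308), KRT80 (chr12:52168996-52192014) and KRT81 (chr12:52285913-52291534) share no exonic base with another gene, and KRT19, KRT80 and KRT15 have no 100-base window in common with one. KRT8 and KRT18 also have many processed pseudogenes, which are described with their own counts further on.

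Levels of different genes were compared per length, as TPM (counts divided by length and scaled to the library) computed from the counts. With the summed exon length, KRT81 stood first in control (24 h) at 6421 TPM on average, followed by KRT18 (3355 TPM), KRT7 (3122 TPM) and KRT8 (2427 TPM), and KRT18 and KRT7, as well as KRT7 and KRT8, overlapped between libraries. KRT19 (531 TPM), KRT80 (240 TPM), KRT86 (104 TPM) and KRT15 (5.04 TPM) followed without overlap. In control (3 days) KRT81 was again first (5216 TPM), and KRT19 stood at 444 TPM, KRT86 at 83.3 TPM and KRT80 at 63.0 TPM, the last pair overlapping. This order depended on the length used. Annotated transcripts with retained introns lengthen the exons of KRT8 to 6881 bases, against 1784 bases of its canonical transcript. With canonical lengths, a choice made after seeing the data, KRT8 came first in control (24 h) at 6747 TPM, KRT7 had 5537, KRT18 5253 and KRT81 4628 TPM, each overlapping the next between libraries. At SP 3 days KRT81 followed KRT18 and KRT8 with summed exon lengths (2313 TPM) and followed KRT8, KRT18, KRT7 and KRT19 with canonical ones (1723 TPM).

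**Figure D1:**
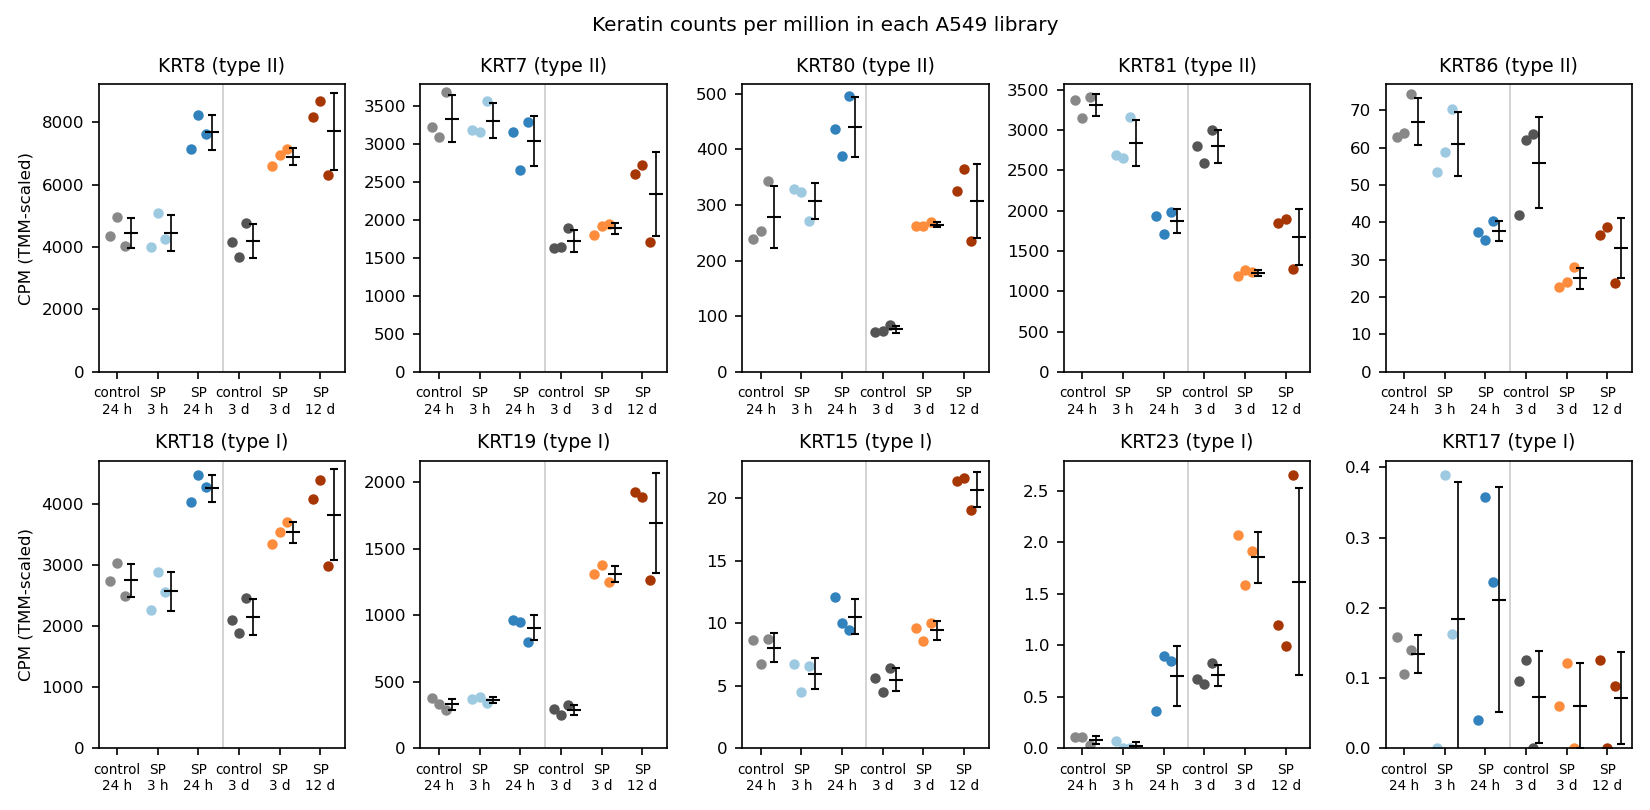
CPM (linear axes from 0, TMM-scaled) of the 10 keratins in each of the 18 libraries, with 1 point per library and the mean ± SD of each group beside it, and a vertical line between the 2 count tables. KRT19, KRT8 and KRT18 lie above control at SP 24 h, SP 3 days and SP 12 days, KRT81 and KRT86 lie below it, and replicate 3 of SP 12 days lies apart from the other two for most genes.

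Which keratins changed was tested within each table (edgeR's quasi-likelihood test over all genes, adjusted by Benjamini-Hochberg). A keratin is said to have risen or fallen at an adjusted p under 0.05 and is called at an adjusted p under 0.0001 with at least a 2-fold change. In the table of the short treatments 8 of the 10 could be tested, since KRT17 and KRT23 had too few reads, and in the other 9, without KRT17. At SP 3 h 0 of 8 keratins passed with edgeR, where 7.39% of 17377 genes rose, 4.11% fell and 0% were called. With DESeq2 0 of 10 passed, where 1463 of 36979 genes rose, 1060 fell and 400 were called. KRT15 alone had an unadjusted p under 0.05 (0.0451), with a log2 fold change of −0.45 ± 0.19 (SE). The 95% intervals of the log2 differences at SP 3 h ran from −0.27 to 0.25 for KRT7, from −0.28 to 0.28 for KRT8, from −0.36 to 0.16 for KRT18 and from −0.14 to 0.40 for KRT19.

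At SP 24 h, 4 of 8 keratins rose (KRT8, KRT18, KRT19 and KRT80) where 16.8% of all tested genes did, and 2 fell (KRT81 and KRT86) where 12.0% did. KRT19 alone was called, where 0.685% of genes were. With DESeq2 1 of 10 keratins was called, beside 1123 of 36979 genes. Deviations from the group mean of same-numbered control (24 h) and SP 24 h libraries correlated at 0.499, 0.17 and 0.504. With the replicate number as a block in edgeR, 0 keratins and 2 of 17377 genes were called, while 4 keratins rose and 2 fell. At SP 3 days 6 of 9 rose (KRT8, KRT18, KRT19, KRT80, KRT15 and KRT23) against 25.2% of genes, and 2 fell (KRT81 and KRT86) against 23.3%. Called were 3 (KRT19, KRT80 and KRT81) against 8.44%, or 4, with KRT86, by DESeq2, with no filter or with only the compared groups fitted. Those 3 fits called 1744 of 39413, 2136 of 39415 and 1992 of 17191 genes. At SP 12 days KRT7 joined those that rose, which made 7 of 9 against 26.4% of genes, the same pair fell against 23.4%, and 3 were called (KRT19, KRT80 and KRT15) against 9.11%. The median log2 fold change of the keratins tested was −0.06 at SP 3 h, 0.51 at SP 24 h, 0.72 at SP 3 days and 0.88 at SP 12 days, beside 0.003, −0.01, −0.024 and −0.004 over all genes tested.

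**Figure D2:**
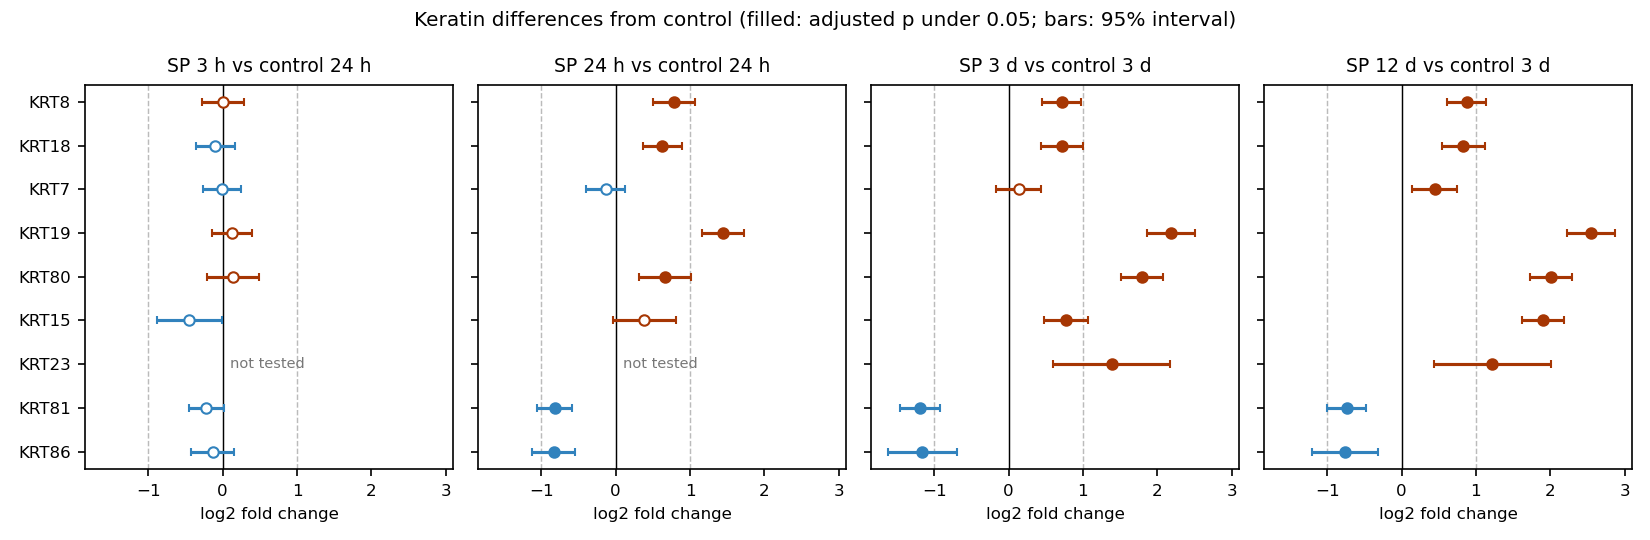
Log2 fold change of 9 keratins against control at the 4 exposures, with 95% intervals as bars, filled points at an adjusted p under 0.05 and dashed lines at 2-fold. At SP 3 h every point is open, and from SP 24 h on KRT19 lies farthest to the right and KRT81 and KRT86 lie to the left of 0.

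KRT8 and KRT18, the chains of the filament that nearly every simple epithelial cell makes, rose together and by similar amounts. KRT8 had 4351, 4966 and 4032 CPM in the control (24 h) libraries, 3994, 5106 and 4273 CPM at SP 3 h and 7131, 8245 and 7637 CPM at SP 24 h. KRT18 had 2731, 3024 and 2482 CPM in control (24 h), 2256, 2881 and 2551 CPM at SP 3 h and 4021, 4460 and 4268 CPM at SP 24 h. The SP 24 h libraries were above all control and SP 3 h libraries for both genes, and the SP 3 h libraries overlapped control. The log2 fold change at SP 24 h was 0.79 ± 0.13 (SE, adjusted p = 0.00181) for KRT8 and 0.63 ± 0.12 (adjusted p = 0.00416) for KRT18.

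In the other table KRT8 went from 4148, 3691 and 4779 CPM in control (3 days) to 6600, 6945 and 7135 CPM at SP 3 days and 8152, 8665 and 6324 CPM at SP 12 days. KRT18 went from 2091, 1887 and 2461 CPM to 3344, 3540 and 3699 CPM and to 4080, 4392 and 2974 CPM. No treated library overlapped a control library for either gene, and the lowest SP 12 days value of both was replicate 3. The log2 fold changes were 0.71 ± 0.12 (KRT8) and 0.72 ± 0.13 (KRT18) at SP 3 days and 0.88 ± 0.12 and 0.83 ± 0.13 at SP 12 days, with adjusted p between 2.63e-05 and 0.00042, so that both rose by less than 2-fold. Without replicate 3 of SP 12 days they were 0.98 and 0.96 at SP 12 days. The KRT8 to KRT18 ratio per summed exon length was 0.866 to 0.885 in control (3 days), 0.860 to 0.880 at SP 3 days and 0.880 to 0.948 at SP 12 days. In the other table it was 0.710 to 0.733 in control (24 h) and 0.791 to 0.825 at SP 24 h, without overlap, and 0.747 to 0.790 at SP 3 h.

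KRT7, a type II partner in ductal and glandular epithelia that distinguishes lung from many intestinal tumours, was the abundant simple keratin with the smallest differences. It had 3225, 3088 and 3678 CPM in control (24 h), 3185, 3157 and 3568 CPM at SP 3 h and 3153, 2664 and 3293 CPM at SP 24 h. In control (3 days) it had 1624, 1647 and 1893 CPM, at SP 3 days 1800, 1919 and 1946 CPM, and at SP 12 days 2601, 2723 and 1705 CPM. Treated and control libraries overlapped in all 4 comparisons. The log2 fold change was −0.13 (95% interval −0.39 to 0.13, adjusted p = 0.404) at SP 24 h and 0.13 (−0.17 to 0.44, adjusted p = 0.459) at SP 3 days. At SP 24 h it was −0.51 (adjusted p = 0.0157) when GC content and length were corrected for, and −0.52 (adjusted p = 0.0109) with the replicate block as well, and the correction turned the SP 3 days value to −0.06.

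At SP 12 days KRT7 rose by a log2 fold change of 0.44 ± 0.14 (adjusted p = 0.0169), but this pass was lost with the GC and length correction (0.37, adjusted p = 0.0762). It was also lost without replicate 1 (adjusted p = 0.0684) or replicate 2 (0.0786) of control (3 days), or without replicate 1 (0.0853) or replicate 2 (0.0751) of SP 12 days. Without replicate 3 of SP 12 days the value was 0.61 (adjusted p = 2.33e-07).

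KRT19, the smallest keratin, which pairs with KRT8 and KRT7 in simple epithelia and marks many carcinoma cells in blood, showed the widest rise of the abundant members. It had 375, 331 and 291 CPM in control (24 h), 369, 382 and 338 CPM at SP 3 h and 966, 952 and 798 CPM at SP 24 h. In control (3 days) it had 295, 249 and 323 CPM, at SP 3 days 1308, 1374 and 1253 CPM and at SP 12 days 1927, 1892 and 1262 CPM. From SP 24 h on, every treated library was above every control library. The log2 fold change was 1.45 ± 0.12 at SP 24 h (adjusted p = 9.14e-05), 2.18 ± 0.15 at SP 3 days (adjusted p = 4.8e-08) and 2.55 ± 0.15 at SP 12 days (adjusted p = 1.03e-08).

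The call of KRT19 at SP 24 h lay close to its threshold. It was lost when any 1 of the 9 libraries of that table was left out, with adjusted p between 0.000153 and 0.00113 and log2 fold changes between 1.35 and 1.53. It was also lost with the replicate number as a block (1.45, adjusted p = 0.000273), and with the GC and length correction (1.08, adjusted p = 0.00071). Without replicate 3 of SP 12 days the SP 12 days value was 2.71.

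KRT80, a type II keratin of epithelial cells found near desmosomes and at cell edges, rose from SP 24 h on. It had 240, 253 and 343 CPM in control (24 h), 329, 323 and 271 CPM at SP 3 h and 437, 388 and 495 CPM at SP 24 h. It had 72.3, 73.2 and 83.6 CPM in control (3 days), 262, 262 and 270 CPM at SP 3 days and 324, 364 and 234 CPM at SP 12 days. The treated libraries were above control from SP 24 h on, with log2 fold changes of 0.66 ± 0.16 (adjusted p = 0.0128), 1.79 ± 0.13 (adjusted p = 7.11e-08) and 2.01 ± 0.13 (adjusted p = 2.05e-08). The last was 2.16 without replicate 3 of SP 12 days. The SP 24 h value did not pass without replicate 1 of control (24 h) (0.53, adjusted p = 0.0514) or replicate 3 of SP 24 h (0.57, adjusted p = 0.0546). With the GC and length correction it was 0.39 (adjusted p = 0.0159).

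KRT81 and KRT86, type II chains of the hair cortex that some carcinoma lines also express, fell together. KRT81 had 3371, 3147 and 3409 CPM in control (24 h), 2692, 2658 and 3166 CPM at SP 3 h and 1929, 1707 and 1983 CPM at SP 24 h. In the other table it had 2799, 2588 and 2999 CPM in control (3 days), 1183, 1258 and 1241 CPM at SP 3 days and 1851, 1891 and 1278 CPM at SP 12 days. Libraries of SP 24 h, SP 3 days and SP 12 days were all below their controls, while SP 3 h overlapped control. The log2 fold change was −0.82 ± 0.11 at SP 24 h (adjusted p = 0.000628), −1.19 ± 0.13 at SP 3 days (adjusted p = 1.73e-06) and −0.74 ± 0.13 at SP 12 days (adjusted p = 0.000161), or −0.60 at SP 12 days without replicate 3 of that group. With the GC and length correction the SP 24 h value was −1.25 (adjusted p = 0.00018).

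KRT86 had far fewer reads than KRT81. It had 42.0, 62.1 and 63.8 CPM in control (3 days), 22.7, 24.0 and 28.2 CPM at SP 3 days and 36.6, 38.7 and 23.9 CPM at SP 12 days. In the short treatments it had 62.8, 63.8 and 74.3 CPM in control (24 h), 53.5, 58.8 and 70.4 CPM at SP 3 h and 37.6, 35.2 and 40.3 CPM at SP 24 h. Its log2 fold changes followed those of KRT81 at −0.83 ± 0.13 (adjusted p = 0.00156), −1.16 ± 0.21 (adjusted p = 0.001) and −0.76 ± 0.20 (adjusted p = 0.00998), the last being −0.58 without replicate 3 of SP 12 days. At SP 3 days it was also called with DESeq2 (−1.15, adjusted p = 4.59e-09), with no filter (−1.14, adjusted p = 2.48e-17), and without replicate 1 of control (3 days) (−1.34, adjusted p = 5.02e-05) or replicate 3 of SP 12 days (−1.16, adjusted p = 1.1e-08). The KRT81 to KRT86 ratio per summed exon length averaged between 58.8 and 65.1 in the 6 groups, with single libraries from 52.4 to 83.7, so that the pair moved in nearly one proportion. Whether the reads of KRT86 came from KRT86 or from KRT81 was not tested, in view of the windows that both share.

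KRT15, a type I keratin of basal and progenitor cells in layered epithelia, was far lower than the simple keratins. It had 8.68, 6.76 and 8.73 CPM in control (24 h), 6.77, 4.54 and 6.56 CPM at SP 3 h and 12.1, 10.1 and 9.46 CPM at SP 24 h. In control (3 days) it had 5.59, 4.51 and 6.38 CPM, at SP 3 days 9.63, 8.59 and 10.1 CPM and at SP 12 days 21.4, 21.6 and 19.1 CPM. Its log2 fold change was 0.38 ± 0.19 at SP 24 h (adjusted p = 0.157, or 0.16 with the GC and length correction), 0.77 ± 0.14 at SP 3 days (adjusted p = 0.000285) and 1.91 ± 0.13 at SP 12 days (adjusted p = 1.34e-08). Replicate 3 of SP 12 days lay close to the other two for this gene, and the value without it was 1.94. The libraries of SP 24 h were above control (24 h), and those of SP 12 days above those of SP 3 days.

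KRT23, a type I keratin of glandular and gastrointestinal epithelia, had few reads. The libraries of control (3 days) held 14, 10 and 14 reads, those of SP 3 days 34, 26 and 32 and those of SP 12 days 19, 20 and 60. The SP libraries were above control, with log2 fold changes of 1.38 ± 0.37 at SP 3 days (adjusted p = 0.00594) and 1.22 ± 0.37 at SP 12 days (adjusted p = 0.0121), but without replicate 3 of SP 12 days the latter was 0.60 (adjusted p = 0.126). In the other table it was left untested by the filter, with 2, 2 and 1 reads in control (24 h), 1, 0 and 0 at SP 3 h and 9, 40 and 25 at SP 24 h. Fitted without the filter, it rose at SP 24 h (adjusted p = 0.000143), a value that rests on these few reads. In that fit 3134 of 36979 genes rose. KRT17, a type I keratin of basal and wounded epithelium, was nearly absent, with 60 reads over all 18 libraries and 0 to 16 in any one, and no difference was detectable at this depth.

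Between times of exposure, 7 of 8 keratins differed between SP 24 h and SP 3 h, where 20.1% of genes did. KRT8, KRT18, KRT19, KRT80 and KRT15 were higher at SP 24 h and KRT81 and KRT86 lower. With edgeR 0 were called, where 0.0288% of genes were, and 7 had an unadjusted p under 0.05. With DESeq2 1 was called (KRT19), beside 606 of 36979 genes. KRT7 had a log2 difference of −0.12 with a 95% interval from −0.38 to 0.14. Between SP 12 days and SP 3 days 2 of 9 keratins differed, against 8.10% of genes. KRT15 was 1.13 ± 0.13 higher on the log2 scale (adjusted p = 7.95e-05) and was the 1 keratin called, where 0.180% of genes were, and KRT81 was 0.45 ± 0.13 higher (adjusted p = 0.0396).

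The call of KRT15 and the pass of KRT81 lay close to their thresholds. Over the fits without 1 library the log2 difference was 1.06 to 1.18 for KRT15 and 0.34 to 0.60 for KRT81. The call of KRT15 was lost, but not its pass, when any library other than replicate 3 of SP 12 days was left out (adjusted p 0.00011 to 0.0017), and KRT81 then no longer passed (0.0538 to 0.204). With the replicate number as a block in edgeR, the call of KRT15 and the pass of KRT81 (adjusted p = 0.0612) were also lost. Without replicate 3 of SP 12 days all 9 keratins passed. In that fit 2456 of 18067 genes were higher at SP 12 days, 2617 were lower and 300 were called. The log2 differences of KRT7, KRT8, KRT18, KRT19, KRT80, KRT81, KRT86 and KRT15 lay between 0.25 and 1.18, all higher at SP 12 days, and KRT23 was at −0.78 (adjusted p = 0.0403).

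The response at 3 days was compared with that at 24 h in one fit over all 18 libraries, in which the time of exposure and the experiment cannot be told apart. Of 9 keratins 2 passed, where 6.28% of 18785 genes did. KRT80 differed by 1.18 ± 0.22 on the log2 scale (adjusted p = 0.00496) and KRT19 by 0.78 ± 0.20 (adjusted p = 0.0295), both with the larger rise at 3 days. The pass of KRT19 was lost when 1 of 8 of the 12 libraries concerned was left out, namely any control (3 days) library, replicate 1 or 2 of SP 3 days, replicate 1 of control (24 h), or replicate 2 or 3 of SP 24 h (adjusted p 0.0521 to 0.106). The responses of KRT8 and KRT18 differed by −0.04 (95% interval −0.43 to 0.35) and 0.12 (−0.28 to 0.53).

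Set against each other per length, the 10 keratins changed in proportion as well as in amount. Their reads made up 1.12%, 1.06% and 1.24% of all counted reads in control (3 days), 1.46%, 1.52% and 1.53% at SP 3 days and 1.85%, 1.93% and 1.42% at SP 12 days. In the other table they made up 1.37% to 1.52% in control (24 h), 1.29% to 1.47% at SP 3 h and 1.76% to 1.89% at SP 24 h. The sum of the type I chains was 0.310 to 0.340 of the type II chains in control (3 days), 0.778 to 0.790 at SP 3 days and 0.731 to 0.748 at SP 12 days, per summed exon length. It was 0.277 to 0.352 in control (24 h), 0.301 to 0.367 at SP 3 h and 0.561 to 0.653 at SP 24 h. So the ratio was higher than control in every library from SP 24 h on, without overlap. With canonical lengths it rose from 0.339 to 0.363 in control (3 days) to 0.595 to 0.603 at SP 3 days, a smaller shift with the same lack of overlap. These sums are a description of chosen genes and were given no test.

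Within the type II chains KRT81 made up 56.2% to 58.2% in control (3 days), 28.7% to 29.5% at SP 3 days and 32.0% to 33.3% at SP 12 days, or 28.5% to 30.2%, 10.9% to 11.2% and 12.4% to 13.3% with canonical lengths. KRT19 made up 14.7% to 15.6% of the type I chains in control (3 days), 30.8% to 33.9% at SP 3 days and 35.7% to 38.2% at SP 12 days. The share of KRT8 in the whole pool went from 17.6% to 18.7% in control (3 days) to 25.5% to 26.0% at SP 3 days, and that of KRT7 was 12.3% to 13.5% and 12.0% to 12.2%. With canonical lengths KRT8 went from 34.6% to 36.1% to 41.8% to 42.3% and KRT7 from 15.4% to 16.9% to 12.6% to 12.7%.

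**Figure D3:**
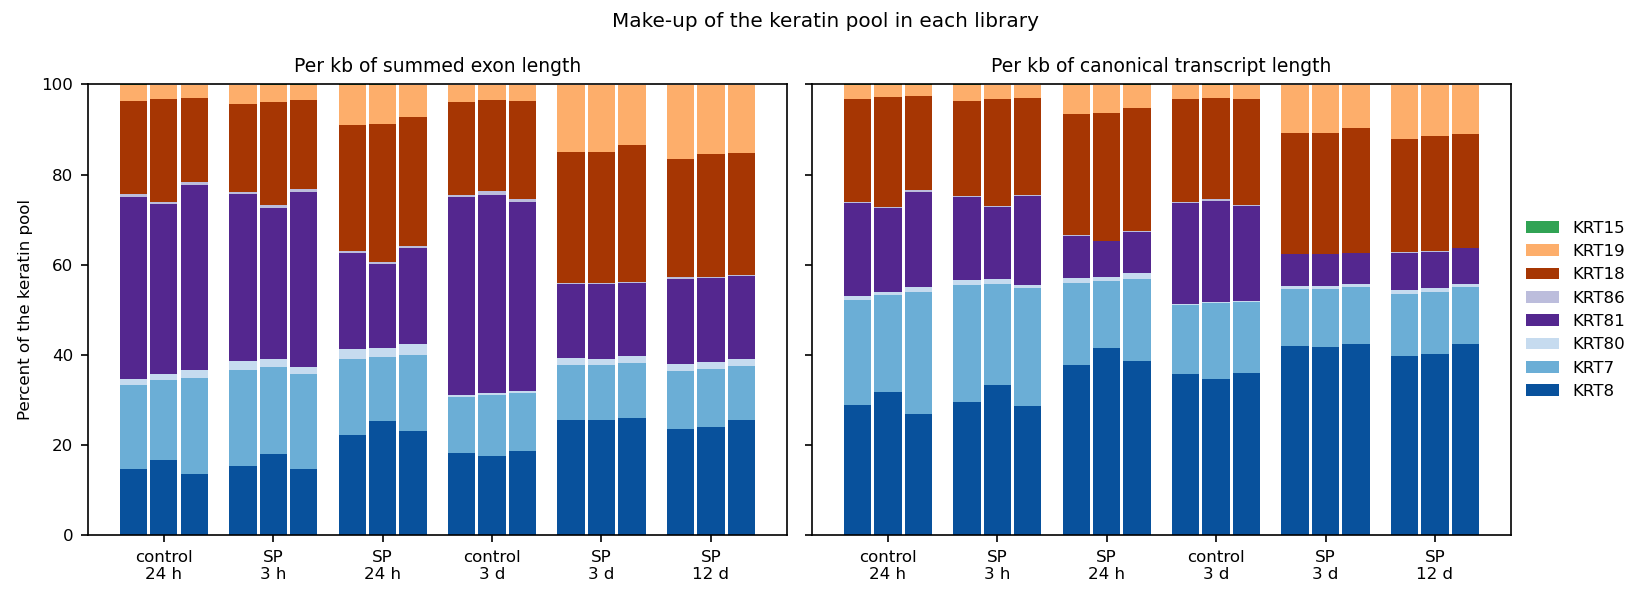
Stacked bars of the share (percent) of 8 keratins in the summed counts per kb of all 10, for each of the 18 libraries, by summed exon length (left) and by canonical transcript length (right). KRT81 makes up 41.9% to 43.9% of the pool in control (3 days) and 16.1% to 16.5% at SP 3 days by summed exon length, while KRT8, KRT18 and KRT19 fill a larger part, and KRT15, KRT17 and KRT23 are too low to be seen.

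Of 45 other protein-coding keratin genes, 8 were tested in the table of the short treatments and 11 in the other. At SP 24 h 1 of 8 rose, KRT20, and 2 fell, KRT83 and KRT85, beside 16.8% and 12.0% of all genes. At SP 3 days 5 of 11 rose (KRT12, KRT20, KRT34, KRT39 and KRT40) and 3 fell (KRT4, KRT83 and KRT85), beside 25.2% and 23.3% of all genes. At SP 12 days 5 rose, with KRT16 in place of KRT39, and 2 fell (KRT4 and KRT83), beside 26.4% and 23.4%. When replicate 3 of SP 12 days was left out, the log2 fold change at SP 12 days was 3.65 for KRT20, 4.03 for KRT34, −0.92 for KRT83 and −0.51 for KRT4, and each passed. At SP 3 h 0 of 8 passed with edgeR. KRT20, a type I keratin of intestinal epithelium and umbrella cells of the bladder, had 3.25, 3.32 and 3.37 CPM in control (3 days) and 43.7, 45.6 and 45.5 CPM at SP 3 days. Its log2 fold change was 3.76 ± 0.11 at SP 3 days (adjusted p = 2.3e-12), 3.59 ± 0.11 at SP 12 days (adjusted p = 4.23e-12) and 4.31 ± 0.53 at SP 24 h (adjusted p = 0.000625).

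The hair keratin KRT83, which lies among the type II genes of chromosome 12 with KRT81 and KRT86, had 33.3 to 45.3 CPM in control (3 days) and 14.8 to 16.7 CPM at SP 3 days. Its log2 fold change was −0.66 ± 0.18 at SP 24 h (adjusted p = 0.0212), −1.32 ± 0.14 at SP 3 days (adjusted p = 1.86e-06) and −1.05 ± 0.14 at SP 12 days (adjusted p = 1.47e-05). KRT85, a further hair type II chain, had −0.84 ± 0.23 at SP 24 h (adjusted p = 0.0232) and −1.13 ± 0.40 at SP 3 days (adjusted p = 0.0354). KRT4, a type II keratin of layered mucosa, had −1.26 ± 0.16 at SP 3 days (adjusted p = 7.82e-06) and −0.43 ± 0.15 at SP 12 days (adjusted p = 0.0221). KRT34, a hair type I chain, had 7 reads over the 3 control (3 days) libraries and 42 and 94 over those of SP 3 days and SP 12 days (adjusted p = 0.00927 and 0.000431).

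The 150 annotated keratin pseudogenes took few reads beside the abundant keratins. Those of KRT8, 51 in number, held 9175 reads over 18 libraries, which is 0.383% of the 2394179 reads of KRT8 (0.292% to 0.589% in single libraries). The 67 of KRT18 held 0.352% of its 1298000 reads, and the 5 of KRT19 held 0.0267%. The 8 of KRT17 held 45 reads, beside the 60 of KRT17 itself. Adding pseudogene reads to the parent gene changed no direction or pass of a keratin and no count of calls. KRT87P, KRT8P12 and KRT8P3 held most reads. KRT8P3 rose at SP 3 days (log2 fold change 0.87 ± 0.21, adjusted p = 0.00274) and SP 12 days (1.09 ± 0.21, adjusted p = 0.000379), as KRT8 did, whereas KRT8P12 fell (−0.49 ± 0.17, adjusted p = 0.0245, and −0.63 ± 0.17, adjusted p = 0.00563). KRT87P, a pseudogene in the hair keratin cluster, fell at SP 3 days (−0.49 ± 0.17, adjusted p = 0.0309).

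Among 32 genes for proteins that bind keratin filaments or form other intermediate filaments, 31 were tested. At SP 3 h 4 rose and 2 fell, at SP 24 h 7 and 6, at SP 3 days 12 and 5 and at SP 12 days 18 and 4. The shares of all genes that rose and fell were 7.39% and 4.11%, 16.8% and 12.0%, 25.2% and 23.3%, and 26.4% and 23.4%. The median log2 fold change of the partners was 0.17 at SP 3 days and 0.27 at SP 12 days, beside −0.024 and −0.004 over all genes. Without replicate 3 of SP 12 days 20 rose and 4 fell at SP 12 days, where 27.3% and 27.6% of all genes did. The median of the partners was then 0.33, beside −0.033 over all genes. Each partner named here for SP 12 days still passed in the same direction. PPL (periplakin), which ties keratin filaments to desmosomes and the cornified envelope, had 18.2, 19.0 and 23.4 CPM in control (3 days) and 50.9, 46.9 and 54.3 CPM at SP 3 days, without overlap (log2 fold change 1.33 ± 0.12, adjusted p = 2.03e-07). EPPK1 (epiplakin), which binds and bundles keratin networks, had 1 read in each control (3 days) library and 55 to 77 reads at SP 3 days (adjusted p = 1.84e-08). PKP2, the desmosomal plakophilin of simple epithelia, rose by 0.58 ± 0.11 at SP 3 days (adjusted p = 0.000621) and 1.05 ± 0.11 at SP 12 days (adjusted p = 1.54e-06).

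Other rises at SP 3 days were smaller, namely HSPB1 (0.67), DNAJB6 (0.57) and HSPA8 (0.42), which are chaperones, the linker MACF1 (0.44), TRADD (0.39), STUB1 (0.26) and GORASP2 (0.25). DSP (desmoplakin) rose at SP 12 days by 0.27 ± 0.07 (adjusted p = 0.00589), as did PLEC (plectin) by 0.33 ± 0.10 (adjusted p = 0.0113), SFN (1.18), LMNA (0.46) and DST (0.38). DSP also rose at SP 24 h by 0.70 ± 0.20 (adjusted p = 0.0272), while at SP 3 days it had 0.01 (adjusted p = 0.921). TCHP (trichoplein), FBF1 and EVPL (envoplakin) fell at both times, and CSNK1A1 (−0.25) fell at SP 3 days. At SP 24 h HSPA8 had −0.86 ± 0.16 (adjusted p = 0.00394), opposite to its sign in the other table. Of the non-keratin filaments, NES (nestin) rose by 3.18 ± 0.12 at SP 3 days (adjusted p = 3.73e-11), and LMNB1, a nuclear lamin, fell by 0.85 ± 0.21 (adjusted p = 0.00953). VIM (vimentin), the filament of mesenchymal cells that A549 also expresses, had 402, 415 and 448 CPM in control (3 days) and 514, 548 and 536 CPM at SP 3 days, a rise of 0.34 ± 0.09 (adjusted p = 0.00668). VIM also rose at SP 12 days, by 0.45 ± 0.09 (adjusted p = 0.000706). At SP 24 h VIM fell by 0.65 ± 0.09 (log2, adjusted p = 0.00109), its libraries holding 693 to 710 CPM beside 1023 to 1162 CPM in control (24 h).

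Of 20 transcription factors with a known role at keratin genes, 16 were tested. At SP 3 h 4 rose and 0 fell, at SP 24 h 7 and 1, at SP 3 days 4 and 8 and at SP 12 days 6 and 6, or 6 and 9 without replicate 3 of SP 12 days. At SP 3 days 4 of 16 is about the share of all genes that rose (25.2%), and 8 of 16 fell where 23.3% of all genes did. The shares of all genes that rose and fell were 7.39% and 4.11% at SP 3 h and 16.8% and 12.0% at SP 24 h. At SP 12 days they were 26.4% and 23.4%, or 27.3% and 27.6% without replicate 3 of that group. Those that passed at SP 3 days are named, and CEBPB for SP 3 h, choices made after seeing the data. GRHL1, a grainyhead-like factor of epithelia, was 1 of the 4 factors that rose at SP 3 h. GRHL1 went from 1.26 to 1.27 CPM up to 6.32 to 7.27 CPM there, with a log2 fold change of 2.42 ± 0.16 (adjusted p = 0.000104). It rose by 1.55 ± 0.16 at SP 24 h (adjusted p = 0.000171) and by 2.26 ± 0.24 at SP 3 days (adjusted p = 1.46e-06). OVOL2, a zinc finger factor that maintains the epithelial state, had 1 to 3 reads in the control (3 days) libraries and 27 to 34 at SP 3 days (adjusted p = 5.74e-07). At SP 3 h OVOL2 also rose (2.27 ± 0.50, adjusted p = 0.018), as did CEBPB (0.80 ± 0.14, adjusted p = 0.00665). JUN, part of AP-1, rose by 2.41 ± 0.10 at SP 3 days (adjusted p = 3.95e-11), and HOXC13, a factor of hair keratin genes, by 0.46 ± 0.10 (adjusted p = 0.000857). JUN did not pass at SP 3 h (0.35, adjusted p = 0.261) or SP 24 h (−0.06, adjusted p = 0.828). It averaged 25.0 CPM in control (3 days), 133 CPM at SP 3 days and 104 CPM in control (24 h). TP63, a leading factor of basal epithelium, fell by 1.36 ± 0.27 (adjusted p = 0.00179), as did TFAP2A by 0.34 ± 0.09 (adjusted p = 0.00393), TFAP2C by 0.48 ± 0.09 (adjusted p = 0.000348), ETS2 by 0.80 ± 0.11 (adjusted p = 1.62e-05) and ZEB1 by 0.35 ± 0.10 (adjusted p = 0.00979). The epithelial factors ELF3, KLF4 and KLF5 also fell at SP 3 days, by 0.26 ± 0.08 (adjusted p = 0.0165), 0.33 ± 0.10 (adjusted p = 0.0158) and 0.31 ± 0.08 (adjusted p = 0.0053). In the other table they had the opposite sign: ELF3 (0.47, adjusted p = 0.0472) and KLF5 (0.46, adjusted p = 0.0184) rose at SP 24 h, and KLF4 (0.53, adjusted p = 0.0209) rose at SP 3 h. At SP 12 days ELF3 fell (−0.42, adjusted p = 0.00066). KLF4 (0.0891) and KLF5 (0.0639) did not pass there, but passed as lower without replicate 3 of that group (0.0387 and 0.0305).

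The genes most like each abundant keratin were ranked by the distance between their 4 log2 fold changes against control, over 11270 genes with enough reads in both tables. KRT8 and KRT18 were each other's seventh nearest gene, at a distance of 0.191. Nearest to KRT8 were FHL1 (0.078), B4GALT5 (0.127) and ITPK1 (0.149), and nearest to KRT18 were PINK1 (0.081), HLA-C (0.141) and MAPK12 (0.163). KRT7 had DNAH14 (0.041), PRKX (0.075) and BPGM (0.081) nearest to it. KRT19 had fewer close neighbours, the nearest being TFPI2 (0.322), COL6A2 (0.481) and SPHK1 (0.495), and KRT80 stood at rank 56 (1.03). Pairs of these comparisons share their controls, so the 4 values are not independent.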

How the data were processed

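Total RNA was sequenced by the authors (NEBNext Ultra libraries, paired ends, Illumina NovaSeq), aligned to GRCh38 with STAR 2.7.9a and counted per Ensembl gene with featureCounts. The deposited tables hold these raw read counts, whole numbers with no normalization. Strandedness and the handling of multi-mapping reads are not given in the sources used here. Symbols, exon lengths and overlaps came from the GENCODE annotation of the same build.

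Each table's 9 libraries were fitted together in edgeR 4.0.16 (R 4.3.3): filterByExpr with a minimum count of 10 kept 17775 and 17377 genes, TMM factors lay between 0.957 and 1.04, and robust quasi-likelihood tests with a group term were adjusted by Benjamini-Hochberg over all tested genes. The thresholds for a call are those of the study, which used DESeq2. CPM use TMM-scaled library sizes, and TPM divide counts by summed exon length. The depth behind every value is the number of counted reads given at the start. Scripts were tested on simulated data.

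Alternatives were DESeq2 1.42.0, RLE factors, no filter, only the groups compared, a replicate block, a GC and length correction, added pseudogene counts, KRT81 and KRT86 summed, and leaving out each library. Residuals of same-numbered control (24 h) and SP 24 h libraries correlated at 0.499, 0.17 and 0.504. The labels give only replicate numbers, and libraries with different numbers were not correlated. Whether these numbers pair the libraries was therefore not tested. Reported values come from the fit without the block, and the calls and passes of keratins that the block changed are named at the end. For SP 3 h the correlations were −0.09, −0.03 and −0.59, and in the other table they lay between −0.01 and 0.16.

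The members and gene lists were chosen with earlier results of these data known. The rule for named genes takes all members, up to 2 other keratins each way per comparison, the 3 pseudogenes with most reads, partners that passed in the table with 3 days and 12 days (1 is not reported here), and the 3 nearest genes of KRT7, KRT8, KRT18 and KRT19. Regulators that passed at SP 3 days were named, and CEBPB for SP 3 h, choices made after seeing the data. Canonical lengths were added after seeing the data.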

Additional observations from a re-analysis of the deposited data

Results flagged for a closer look

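Keratin responses that differed between times of exposure, with adjusted p from edgeR, were as follows. From SP 3 h to SP 24 h the log2 differences were 1.32 for KRT19 (adjusted p = 0.000398), 0.83 for KRT15 (0.0161), 0.78 for KRT8 (0.00322), 0.73 for KRT18 (0.00342) and 0.52 for KRT80 (0.0454). In the other direction they were −0.60 for KRT81 (0.00491) and −0.69 for KRT86 (0.00611). The passes of KRT80 and KRT15 did not hold in every fit without 1 library. KRT80 passed in only 2 of the 9 fits that left out a library (adjusted p up to 0.157), and KRT15 did not pass without replicate 1 of SP 24 h (0.0583). From SP 3 days to SP 12 days KRT15 differed by 1.13 (7.95e-05) and KRT81 by 0.45 (0.0396). The response at 3 days exceeded that at 24 h by 1.18 for KRT80 (0.00496) and 0.78 for KRT19 (0.0295).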

How the results depend on the processing

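Over the alternatives, 601 of 642 single-gene values kept their direction and side of the threshold, 12 no longer passed, 14 newly passed and 15 changed sign. The fits without 1 library entered this count only with the lowest and highest fold change of each result. Passes lost in the other such fits are not in it. The number of keratins called at SP 24 h was 1 and became 0 with only the compared groups fitted, with the GC and length correction, with the replicate block, with both, and in each fit without 1 library (0 to 0). The genes called there went from 119 to 2 with the block. The keratins called at SP 3 days were 4 with DESeq2, with no filter and with only those groups. They were also 4 with KRT81 and KRT86 summed, but there the 1 summed value was counted under both names. In the other fits they were 3, except without 1 library (3 to 4). Between SP 24 h and SP 3 h the calls were 1 with DESeq2 and 2 with no filter, beside 606 and 602 of 36979 genes. Between SP 12 days and SP 3 days they were 0 with only those groups, with the block, and with block and correction, and 0 to 1 without 1 library. There the keratins that passed were 5 with no filter, 1 with only those groups, 1 with the block and 1 to 9 without 1 library. The 9 came without replicate 3 of SP 12 days, where 2456 of 18067 genes were higher and 2617 lower. The responses that differed between 3 days and 24 h were 1 to 2 without 1 library.

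Signs changed for small differences only. KRT7 at SP 3 days was −0.0557 with the correction and −0.0562 with the block as well, and at SP 3 h lay between −0.0738 and 0.0638 without 1 library. KRT8 at SP 3 h was −0.0211 with DESeq2 and −0.0196 with RLE factors, −0.0002 with no filter, −0.0085 with only those groups, −0.0004 with the block, −0.0707 with the correction and −0.0591 with both, and −0.1075 to 0.085 without 1 library. Its difference in response was 0.0971 with the correction and −0.1255 to 0.0165 without 1 library. Between SP 12 days and SP 3 days KRT18 lay between −0.0094 and 0.2515 and KRT23 between −0.7778 and 0.0943. The causes were not tested.

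The replicate block ended the call of KRT19 at SP 24 h (adjusted p = 0.000273) and the pass of KRT80 between SP 24 h and SP 3 h (0.0693). In the table with 3 days and 12 days, residuals of same-numbered libraries correlated at −0.01 to 0.16. There the block ended the pass of KRT81 (0.0612) and the call of KRT15 between SP 12 days and SP 3 days. It changed no other pass. With 3 libraries a group, KRT17 and, in the short treatments, KRT23 are limited by their read counts.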
